A study of Mus musculus with 6 samples.

Results

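The RNA of 10 enzymes of glycolysis was examined: the aldolases Aldoa and Aldoc, the enolases Eno1 and Eno2, the lactate dehydrogenase subunits Ldha and Ldhb, and Tpi1, Gapdh, Pgk1 and Pkm. They were chosen by name, as glycolytic enzymes and the paralogs that glia and neurons are known to use unequally. The choice was made with earlier results of these data known. All 10 were found among the 24411 genes of the deposited tables. The libraries came from the corpus callosum, the axon tract that joins the cortical hemispheres, of mice on postnatal day 4. The tract was cut by hand from frozen brain sections, and polyadenylated RNA was sequenced. One group was WT and the other carried a conditional knockout (cKO) of Mettl14, which encodes a subunit of the enzyme that places N6-methyladenosine (m6A) on RNA, with 3 libraries each. The strain is labelled B6, and no source used here names the Cre driver or the cells in which it acts. Nothing in the labels ties each library to its own animal, so the p-values measure the spread between these libraries, which may be technical.

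Glycolysis splits glucose into pyruvate in the cytosol and yields ATP, and lactate dehydrogenase turns pyruvate into lactate and back. Several steps have paralogous or alternatively spliced enzymes: aldolase C is an enzyme of astrocytes and of some neurons, enolase 2 is the neuron-specific enolase, and the M1 and M2 forms of pyruvate kinase come from one gene by a choice between neighbouring exons. In the brain, astrocytes and oligodendrocytes are known for a high glycolytic rate and for passing lactate to axons.

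Libraries held 670462 to 1268430 expected counts. Both replicate 2 libraries were deeper than the rest and had shorter fragments (304.3 and 292.7 bases against 332.4 to 350.5). For Mettl14 itself the WT libraries gave 11, 8 and 5 counts and the cKO libraries 2, 7 and 2, so its loss was not detectable at this depth. Xist was counted in cKO libraries only and the Y-linked Eif2s3y in WT libraries only, so genotype and sex cannot be told apart. Summed markers of astrocytes stood at 10504 to 11599 CPM (counts scaled to library size) in WT and 2930 to 3587 in cKO, those of oligodendrocytes at 3521 to 4998 and 17.0 to 34.0, and those of neurons at 8500 to 10365 and 15299 to 20136. The labels call the tissue callosal axon, and markers of glia and of neurons were both counted in each library. In such bulk tissue, fewer cells of a type and less RNA per cell cannot be told apart.

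In WT callosum the 10 enzymes together took 0.468% to 0.639% of all TPM (RSEM's level, scaled to transcript length and library), and in cKO 0.171% to 0.406%. These sums leave out Eno1b, a copy of Eno1 with which RSEM divides reads by estimate. Eno1b had 18.7, 10.7 and 7.89 TPM in WT and 177, 78.7 and 451 TPM in cKO. Gapdh, the NAD-dependent dehydrogenase of the pathway, had the highest WT level at 1538 ± 346 TPM (SD, n = 3). It was followed by Eno1 at 1080 ± 62.8, Pkm at 758 ± 1.93 and Aldoa at 680 ± 170 TPM. Next came Aldoc at 434 ± 32.8, Ldhb at 347 ± 8.32 and Pgk1 at 272 ± 47.5 TPM. Ldha at 162 ± 219, Tpi1 at 130 ± 221 and Eno2 at 45.2 ± 39.4 TPM came last, and each of these means rested mostly on replicate 2. Among WT neighbours in this order, the libraries of Pkm and Aldoa overlapped, as did those of Pgk1, Ldha, Tpi1 and Eno2, each with the next. In cKO, Gapdh again had the highest mean at 1056 ± 477 TPM, and every pair of neighbours in the order overlapped. Aldoc moved from the fifth place in WT to the tenth in cKO.

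**Figure D1:**
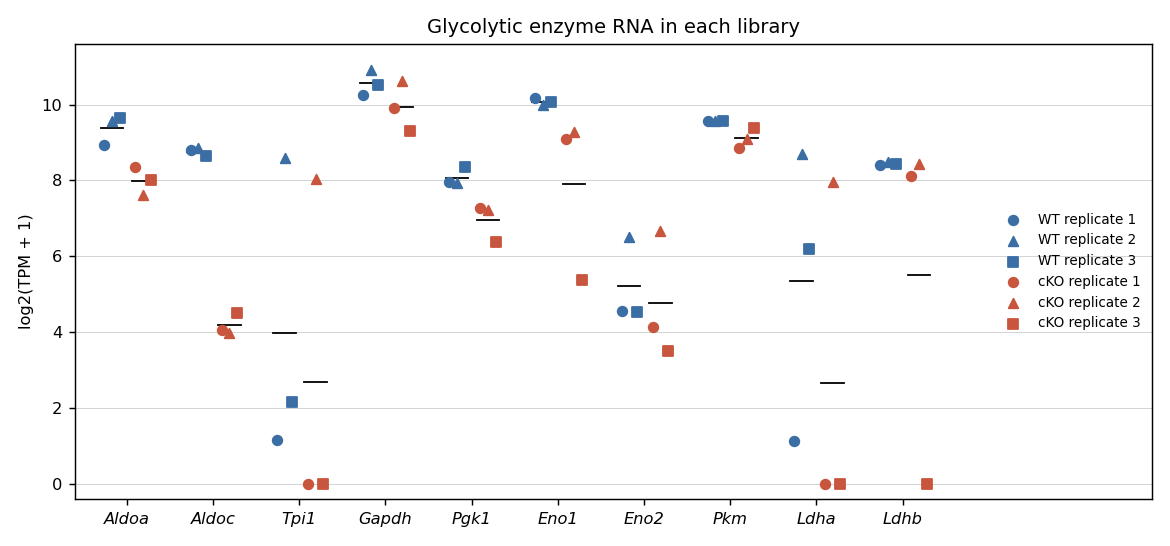
Level of each enzyme as log2(TPM + 1) in the 6 libraries; blue symbols are WT, red symbols are cKO, the symbol shape gives the replicate number and the bar is the mean of 3 libraries. The WT and cKO libraries of Aldoc lie far apart, whereas Tpi1 and Ldha are high in both replicate 2 libraries.

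Between the genotypes 1 of the 9 enzymes tested was called, Aldoc, and it was lower in cKO. Over all 5918 genes tested with edgeR's quasi-likelihood test at an adjusted p below 0.05, 0.422% were called lower and 0.49% higher. Tpi1 did not pass the filter on low counts, because counts were high in only 2 libraries. Of the 9, 5 had WT and cKO libraries that did not overlap in CPM, all lower in cKO (Aldoc, Aldoa, Eno1, Pgk1 and Pkm), against 9.45% of all genes tested that were lower without overlap. The median log2 fold change of the 9 was −0.71, and that of all genes tested 0.069. The middle value of the 9 was that of Ldha, whose 95% interval ran from −6.17 to 4.75. Because the list was chosen with earlier results of these data known, these comparisons describe it and do not test it.

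Aldolase cleaves fructose 1,6-bisphosphate into triose phosphates. Aldoc (chromosome 11, 78323073 to 78327781, GRCm38) was counted 678, 928 and 632 times in WT and 23, 29 and 23 times in cKO. Per length these were 446, 459 and 397 TPM in WT and 15.7, 14.8 and 21.9 TPM in cKO. All 3 cKO libraries lay far below the lowest WT library, and the libraries of each genotype were close to each other. The difference was 24.2-fold on the CPM scale, or −4.59 as log2 fold change with a standard error (SE) of 0.33 and a 95% interval of −5.38 to −3.81 (edgeR adjusted p = 0.00664). When WT replicate 1 was left out the value was −4.58 (edgeR adjusted p = 0.0952), when WT replicate 3 was left out −4.62 (0.056) and when cKO replicate 1 was left out −4.64 (0.0833), so each of these fits lost the call at a nearly equal size. Without both replicate 2 libraries it was −4.55 (edgeR adjusted p = 0.142), and with the replicate number as a block −4.60 (edgeR adjusted p = 0.109).

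Of 16 astrocyte markers 12 were tested, 12 had negative values and 2 fell, among them Ndrg2, by 1.86 (SE 0.27) on the log2 scale. The 12 log2 fold changes ran from −3.36 for the growth factor receptor Fgfr3 to −0.71 for glutamine synthetase, Glul. The intervals of several of them, Fgfr3 among them (−5.81 to −0.92), overlapped that of Aldoc, and the difference between Aldoc and these markers was not tested. The water channel Aqp4, S100b, Sox9 and Gjb6, with 0 to 8 counts per library, did not pass the filter. All 7 oligodendrocyte markers tested fell, with a median of −7.23. The part of either cell type in the Aldoc value was not tested.

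Aldoa, the ubiquitous aldolase of muscle and many other tissues (chromosome 7, 126795234 to 126800994), had 486, 752 and 803 TPM in WT and 329, 196 and 255 TPM in cKO. The groups did not overlap, but WT replicate 1 stood much nearer to the cKO libraries than the other WT libraries did. Its log2 fold change of −1.33 (SE 0.40; interval −2.27 to −0.39) did not pass over all genes (edgeR adjusted p = 0.243). Its 3 listed transcripts share most of their sequence, and RSEM divided the reads among them unevenly: transcript NM_001177308 took 49.6%, 5.87% and 2.92% of Aldoa TPM in WT and 0%, 88.4% and 0% in cKO. These shares differed widely between libraries of 1 genotype.

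Within each library, the ratio of Aldoc to Aldoa compares the paralogs per length. It was 0.918, 0.61 and 0.494 in WT and 0.0476, 0.0752 and 0.0856 in cKO. By level, Aldoc made up 33.1% to 47.9% of aldolase TPM in WT and 4.54% to 7.89% in cKO, with no overlap. The mean log2 ratio was −0.62 ± 0.45 in WT and −3.89 ± 0.45 in cKO (SD, n = 3), a difference of −3.27 (exact two-sided permutation p = 0.1, the smallest that this design allows; 0.2 adjusted over the 2 pairs with a ratio in every library). Every cKO library was below every WT library in this ratio.

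**Figure D2:**
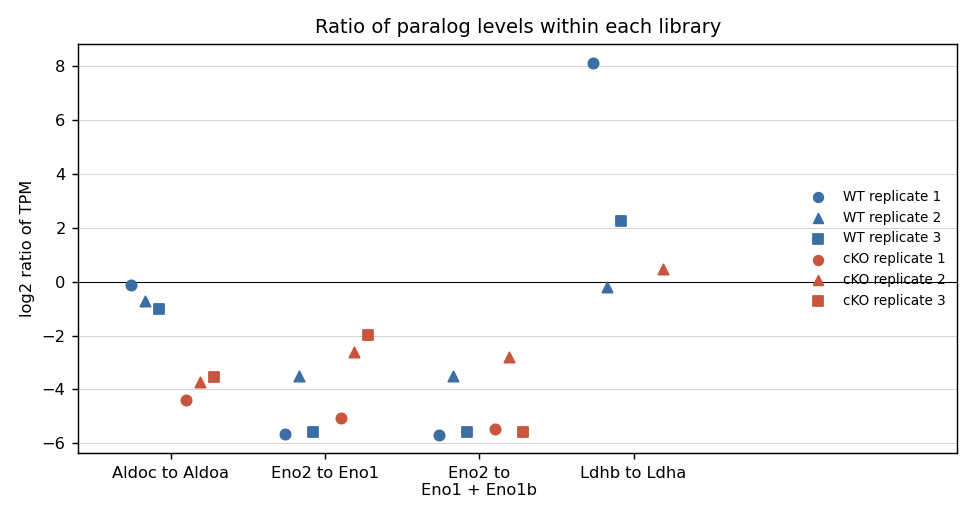
Log2 ratio of TPM of paralogous enzymes within each library, with the genotype in colour and the replicate number as symbol shape; ratios with a level of 0 in either gene are not drawn. The genotypes separate for Aldoc to Aldoa, from −1.02 to −0.12 in WT and from −4.39 to −3.55 in cKO, and overlap for the enolases.

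Tpi1, which interconverts the triose phosphates (chromosome 6, 124810586 to 124814158, 7 exons), was counted 1, 425 and 3 times in WT and 0, 282 and 0 times in cKO. Both replicate 2 libraries held it at a high level, 385 TPM in WT and 262 TPM in cKO, and the other 4 held next to nothing. A count of 0 allows up to 3 counts, or 4.03 and 4.24 CPM in these 2 cKO libraries. Of 1730 genes at 100 CPM or more in both replicate 2 libraries, 27 (1.56%) had 3 counts or fewer in each of the other 4, so Tpi1 shared this pattern with a small set of genes. Bpgm, the bisphosphoglycerate mutase, showed a like pattern, at 0, 102 and 1 counts for WT replicates 1 to 3 and 1, 222 and 1 for the cKO replicates. The larger depth and shorter fragments of the replicate 2 libraries move with these values, and their part was not tested.

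Gapdh (chromosome 6, 125161852 to 125166467) had 1229, 1912 and 1472 TPM in WT and 964, 1572 and 632 TPM in cKO. The groups overlapped, with replicate 2 the highest library in each genotype. Its log2 fold change was −0.41 (SE 0.44; interval −1.46 to 0.64; edgeR adjusted p = 0.799), which went to −0.06 without cKO replicate 3 and to −0.90 without cKO replicate 2.

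Pgk1, the first ATP-making kinase of the pathway, lies on the X chromosome (106187100 to 106203699) and had 247, 242 and 326 TPM in WT and 152, 149 and 82.5 TPM in cKO. The groups did not overlap. Its log2 fold change stood at −0.98 (SE 0.49; interval −2.15 to 0.18; edgeR adjusted p = 0.489).

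Enolase makes phosphoenolpyruvate. Eno1, the enolase of glia and most other cells (chromosome 4, 150236708 to 150248879), had 1148, 1024 and 1067 TPM in WT and 548, 622 and 40.3 TPM in cKO. The WT libraries were close to each other and all above cKO, and cKO replicate 3 stood far below the other cKO libraries. Eno1 had a log2 fold change of −1.24 (SE 0.89; interval −3.36 to 0.89, edgeR adjusted p = 0.658), and without cKO replicate 3 it was −0.68 (edgeR adjusted p = 0.277).

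Eno1b, a 2-exon copy of Eno1, shares its sequence: the GENCODE transcripts were identical at 99.5% of 1652 aligned bases, with 9 mismatches. Its counts were 17.3, 13.3 and 7.64 in WT and 146, 88.5 and 265 in cKO. Eno1b took 0.727% to 1.58% of the summed counts in WT and 22.8%, 10.4% and 91.1% in cKO. Nearly all of the cKO counts were given to the second of the 2 Eno1b entries in the tables, which had 0 counts in each WT library. That entry was not aligned to Eno1 on its own. Eno1b itself stood at 4.07 on the log2 scale (SE 0.74; edgeR adjusted p = 0.0881). Because RSEM divides the reads of such copies by estimate, Eno1 and Eno1b were also summed, an alternative chosen after their values were seen. The sum was 1167, 1035 and 1075 TPM in WT and 725, 701 and 491 TPM in cKO, and its log2 fold change was −0.72 (edgeR adjusted p = 0.441).

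Eno2, the neuron-specific enolase (chromosome 6, 124760053 to 124769673), had 22.6, 90.7 and 22.2 TPM in WT and 16.5, 101 and 10.3 TPM in cKO. It was high in both replicate 2 libraries and low in the other 4, and the genotypes overlapped. Its log2 fold change was 0.13 (SE 1.05; interval −2.36 to 2.62; edgeR adjusted p = 0.984) and changed sign with upper-quartile scaling (−0.28) and without both replicate 2 libraries (−0.77). No direction can be given. Summed neuron markers were higher in every cKO library than in any WT library, but single markers were not uniform. The 12 tested had a median log2 fold change of 0.48, and 2 were negative, Syt1 (−1.08) and Snap25 (−0.31). The 1 marker called with edgeR was the transcription factor Neurod2, at 13.99. Neurod2 went uncounted in WT, whereas cKO replicates 1 to 3 held 1973, 1996 and 1470 counts.

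The ratio of Eno2 to Eno1 was 0.0197, 0.0885 and 0.0208 in WT and 0.0301, 0.162 and 0.257 in cKO. Its mean log2 value was −4.92 ± 1.23 in WT and −3.21 ± 1.63 in cKO (SD, n = 3), with overlap (exact two-sided permutation p = 0.2, and 0.2 adjusted over the 2 pairs). Against the sum of Eno1 and Eno1b the ratio was 0.0194, 0.0876 and 0.0207 in WT and 0.0227, 0.144 and 0.0211 in cKO, and the difference in log2 ratio shrank from 1.70 to 0.32 (exact permutation p = 0.5). On this measure replicate 2 was the highest library in both genotypes.

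**Figure D3:**
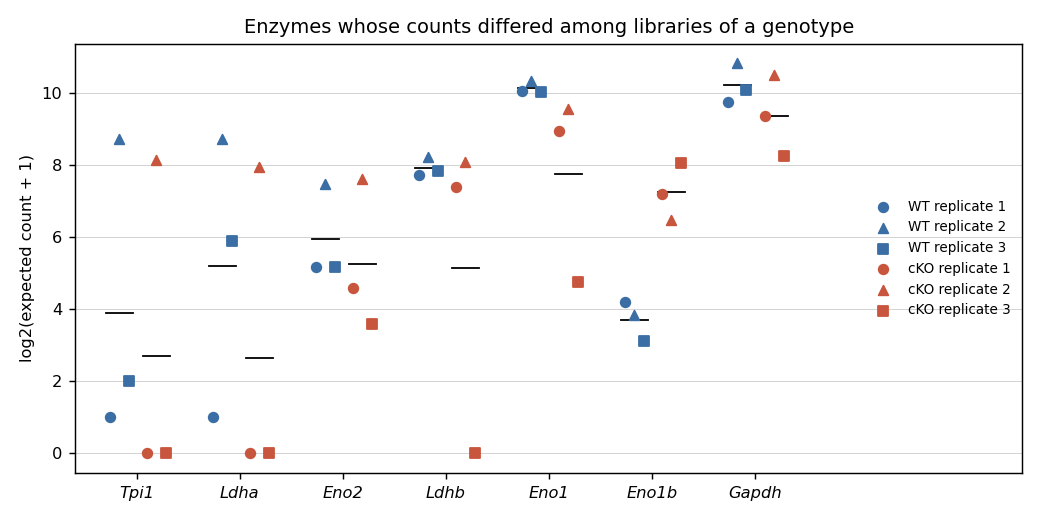
Expected counts as log2(count + 1) of the enzymes that differed among libraries of 1 genotype, with Gapdh for comparison; symbols as for the plot of levels, bars are means of 3 libraries. Tpi1 and Ldha are high in both replicate 2 libraries, Ldhb is at 0 in cKO replicate 3, and Eno1 is low where Eno1b is highest.

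Pyruvate kinase makes pyruvate and ATP in the last step of glycolysis. Pkm (chromosome 9, 59656576 to 59679372) is transcribed with one of a pair of mutually exclusive exons, and the exon sets the enzyme's form. The tables list 2 transcripts of 2432 bases and 11 exons each, NM_001253883 with the M1 exon and NM_011099 with the M2 exon. The M1 form is known from muscle and mature neurons, and the M2 form from embryonic and dividing cells and from astrocytes. The exons are shown because the reads that tell the transcripts apart must touch them. They are given 5′ to 3′ on the plus strand of GRCm38 from GENCODE transcripts, with the bases that differ between them in capitals.
M1 exon, chr9:59675029-59675195: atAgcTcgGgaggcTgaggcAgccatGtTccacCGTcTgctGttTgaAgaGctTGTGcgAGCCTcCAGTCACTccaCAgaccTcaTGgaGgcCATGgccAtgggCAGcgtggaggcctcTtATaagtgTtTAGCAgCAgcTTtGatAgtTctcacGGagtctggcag
M2 exon, chr9:59675568-59675734: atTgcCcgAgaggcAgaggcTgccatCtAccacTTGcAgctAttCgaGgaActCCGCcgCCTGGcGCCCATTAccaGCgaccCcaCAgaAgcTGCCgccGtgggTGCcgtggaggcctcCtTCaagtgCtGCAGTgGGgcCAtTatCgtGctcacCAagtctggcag
Both are coding exons of 167 bases, exon 9 of 11 in their own transcript, and 64 of the 167 bases differ when they are set side by side without gaps. All other internal exons of these GENCODE models are the same in both.

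Pkm as a whole had 756, 760 and 758 TPM in WT and 460, 550 and 666 TPM in cKO. The WT libraries were nearly equal and all above cKO. For the gene as a whole the log2 fold change was −0.40 (SE 0.20; interval −0.88 to 0.08; edgeR adjusted p = 0.493).

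The M1-exon transcript had 202, 92.3 and 203 TPM in WT and 277, 291 and 253 TPM in cKO. The M2-exon transcript had 554, 668 and 554 TPM in WT and 183, 259 and 413 TPM in cKO. In TPM each thus separated the genotypes, in opposite directions. There the M1-exon transcript was above, and the M2-exon transcript below, all WT libraries in every cKO library. For the M1-exon transcript this holds for TPM only. In expected counts, before scaling, cKO replicate 3 had 238 of it and WT replicate 3 had 290. The share of all transcripts that separate in this way was not counted. As a share of Pkm TPM, the M1-exon transcript took 26.8%, 12.1% and 26.9% in WT and 60.3%, 52.9% and 38.0% in cKO. Its mean share was 21.9% ± 8.47 in WT and 50.4% ± 11.4 in cKO (SD, n = 3), a difference of 28.5 percentage points (exact two-sided permutation p = 0.1, the smallest that 3 libraries against 3 allow). The difference ran from 23.5 to 34.7 points when single libraries were left out, and was 22.3 points without both replicate 2 libraries.

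Transcript usage was also tested in edgeR (diffSpliceDGE) over 757 genes, a test chosen after the shares were seen. Pkm had an edgeR adjusted p of 0.286, so the change in share was not called. Of the 757 genes 1.59% were called. Aldoc did not pass either (edgeR adjusted p = 0.0847). Its minor transcript NM_009657 held 7.05%, 6.54% and 3.77% of Aldoc TPM in WT and 0% in cKO, where Aldoc had 23 to 29 counts per library. The usage test gave an edgeR adjusted p of 0.996 for both Aldoa and Eno2.

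**Figure D4:**
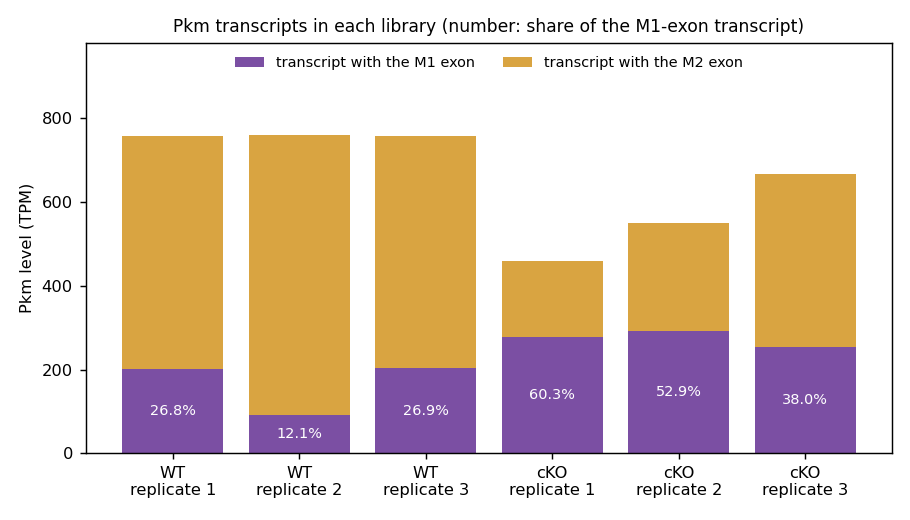
Level of the Pkm transcripts in TPM in each library, stacked, with the share of the M1-exon transcript printed in the lower bar. The share lies between 12.1% and 26.9% in the WT libraries and between 38.0% and 60.3% in the cKO libraries.

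Lactate dehydrogenase is a tetramer of A and B subunits; the A subunit is known for favouring lactate formation and the B subunit for lactate use. Ldhb (chromosome 6, 142490249 to 142507957) had 339, 356 and 347 TPM in WT and 278, 342 and 0 TPM in cKO. The first 2 cKO libraries lay at or just under the WT level, and cKO replicate 3 had 0 counts, which allows up to 4.24 CPM. Of 947 genes at 100 CPM or more in the other 5 libraries, 11 (1.16%) had 0 counts in cKO replicate 3. Ldhb had a log2 fold change of −0.58 (SE 1.39; interval −3.88 to 2.72; edgeR adjusted p = 0.934), and without cKO replicate 3 it was 0.01. With limma-voom it was −2.84 and with limma on log2(TPM + 1) −2.93 (limma adjusted p = 0.64 and 0.679).

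Ldha (chromosome 7, 46842274 to 46855627) was counted 1, 421 and 59 times in WT and 0, 248 and 0 times in cKO. As with Tpi1, the level was high in both replicate 2 libraries, at 412 TPM in WT and 248 TPM in cKO. Where it was counted above 1, RSEM gave most of it to NR_102727, a transcript listed as non-coding, with 100%, 77.3% and 99.0% of Ldha TPM in WT replicates 2 and 3 and cKO replicate 2. On the log2 scale the difference was −0.71 (SE 2.30; interval −6.17 to 4.75; edgeR adjusted p = 0.956).

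The ratio of Ldhb to Ldha was 282, 0.864 and 4.77 in WT, the first of these against 1 count of Ldha. In cKO it was 1.38 in replicate 2 and could not be formed in the other libraries, where Ldha was at 0. In both replicate 2 libraries, which had at least 248 counts for each gene, the gene totals were of like size. Ldhb held 46.3% of the pair's TPM in WT and 58.0% in cKO. There the non-coding NR_102727 was given 100% and 99.0% of Ldha TPM, so these totals do not compare RNA that codes for the subunits. With 1 cKO ratio there was no test on TPM alone; with 1 TPM added to each level, the log2 ratio differed by −0.24 over all 6 libraries (exact two-sided permutation p = 1).

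The other enzymes of the pathway held no edgeR call. Of 20 further enzymes and paralogs 7 were tested and 0 passed, with a median log2 fold change of −0.33. At an unadjusted p below 0.05, which 12.6% of all genes tested had, there was 1, Eno1b, which DESeq2 called higher in cKO. Across all genes DESeq2 called 4.48%, limma-voom 0.71% and limma on log2(TPM + 1) 1.28%. Both limma fits called 0 genes of this list, of the next 4 lists and of the vessel, blood and microglia markers; among their tested genes DESeq2 called 1 in the hypoxia list, Ndrg1, and 0 in the rest. Below edgeR's filter DESeq2 also called the phosphatase Pdp1, at 1, 0 and 0 counts in WT against 2, 58 and 37. The phosphofructokinase subunits Pfkm and Pfkl stood at −0.33 (SE 0.39) and −0.37 (SE 0.45), and the phosphoglucose isomerase Gpi1 at −0.53 (SE 0.64). The testis, liver and muscle paralogs Gapdhs, Pgk2, Ldhc, Pklr and Pgam2 had 0 counts in every library.

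Among 10 carriers of glucose and lactate and their partner proteins 3 were tested and 0 passed (0 at an unadjusted p below 0.05; median −0.99). Slc2a1, the glucose carrier of vessels and glia, was counted 18, 147 and 60 times in WT and 9, 39 and 7 times in cKO, which is −1.75 on the log2 scale (SE 0.83, edgeR adjusted p = 0.455). Bsg, the partner of the lactate carriers, was counted 991, 1402 and 974 times in WT and 553, 734 and 159 times in cKO, with no overlap in CPM and −0.99 (SE 0.46; edgeR adjusted p = 0.443). Slc16a1, a lactate carrier, had 1 count in cKO replicate 3 and 137 and 197 in the other cKO libraries. The neuronal glucose carrier Slc2a3 repeated the pattern of Eno2, at 3, 32 and 5 counts for WT replicates 1 to 3 and 5, 117 and 3 for the cKO replicates.

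For control of glycolysis and entry of pyruvate into mitochondria, 9 of 18 genes were tested and 0 passed (1 at an unadjusted p below 0.05; median −0.01). That gene, Pdk2, a kinase that turns pyruvate dehydrogenase off, was counted 23, 25 and 25 times in WT and 8, 9 and 6 times in cKO (−1.39, SE 0.34; edgeR adjusted p = 0.18). In the glycogen and pentose phosphate pathways 13 of 17 were tested and 0 passed (3 at an unadjusted p below 0.05; median −0.25), with the brain glycogen phosphorylase Pygb at −1.50 (SE 0.46) and the ribose-5-phosphate isomerase Rpia at 1.51 (SE 0.49), each with no overlap in CPM. Of 14 genes of the hypoxia response 6 were tested and 0 passed (2 at an unadjusted p below 0.05; median 0.03). There Ndrg1 stood at 2.09 (SE 0.51) and the hypoxia factor Epas1 at −1.47 (SE 0.49).

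Markers of vessels and blood (7 of 10 tested, median −1.53) and of microglia (4 of 8, median −0.52) held 0 calls with edgeR (4 and 0 at an unadjusted p below 0.05). These 4 were all the vessel markers tested: Pecam1 (−1.87), Flt1 (−1.55), Kdr (−1.53) and Rgs5 (−2.56). Each was lower in cKO with no overlap in CPM, as were 9.45% of all genes tested. The blood genes tested ran from −0.32 to 0.07.

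**Figure D5:**
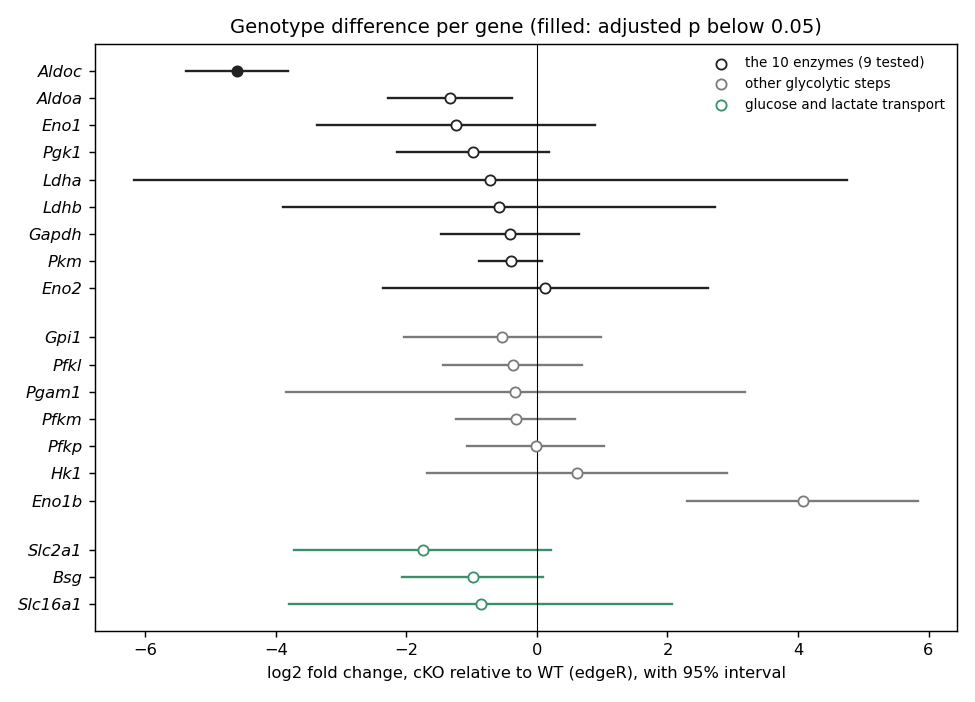
Log2 fold change of cKO relative to WT for the tested enzymes, other glycolytic genes and carriers, with 95% intervals from edgeR; filled points have an adjusted p below 0.05. Aldoc is the 1 filled point. The intervals of Aldoc, −5.38 to −3.81, and Aldoa, −2.27 to −0.39, lie wholly below 0. That of Eno1b, 2.30 to 5.84, lies wholly above 0. Among the 9 tested of the 10 enzymes, the intervals of Ldha, Ldhb and Eno2 are the widest.

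Over the 6 libraries, and among 3039 genes with a mean of at least 50 CPM, the genes whose log2(CPM + 1) followed Aldoc most closely included Gpr37l1 (Pearson r 0.999), S100a16 (0.996), Bcas1 (0.995) and Col9a3 (0.993). Gpr37l1 is a receptor of glia and Bcas1 a marker of new oligodendrocytes. Those most like Aldoa, the enzyme with the next largest log2 fold change, included Lamp1 (0.982), Htra1 (0.98), Pcdh10 (0.97) and Lxn (0.97). With 6 points in 2 groups, such values mostly describe a shared difference between the genotypes. The libraries differ in depth and genotype, and no test was made.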

How the data were processed

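Per the file headers, the authors deposited 1 RSEM table of RefSeq transcripts per library with expected counts (estimated fragments, not normalized) and TPM. The submitters' processing notes name STAR 2.7.10b, RSEM 1.3.3 and build mm10. No annotation release or strand setting is given in these sources. The library kit does not mark strand.

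For each gene, expected counts were added and then rounded, and TPM was added. All 6 libraries entered 1 fit of genotype in edgeR 4.0.16 under R 4.3.3, with TMM scaling, filterByExpr (minimum count 10) and the quasi-likelihood test, adjusted over 5918 genes. CPM uses the same scaling. The SE was worked back from the F statistic, and 95% intervals follow from it. Paralog ratios and transcript shares used TPM and an exact permutation test over libraries. Positions are from RefSeq and exons from GENCODE M21, both GRCm38, the assembly of mm10. Scripts were tested on simulated data.

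Members, lists and tests were chosen with earlier results of these data known. Named were the 10 enzymes, Mettl14, per list up to 4 tested genes with the smallest p and every gene called, and the 5 genes most like Aldoc and Aldoa, of which some are not reported here; Bpgm, Slc2a3, Pdp1, the 2 sex-linked genes, Fgfr3, the genes at 0 and those below the filter were named after their values were seen. The alternatives changed the scaling (RLE, upper quartile), the filter and the tool (DESeq2 1.42.0; limma 3.58.1 with voom or on log2(TPM + 1)), or used a replicate block, a depth term, and leaving out libraries. The 95% intervals hold the spread between libraries, whereas the limits of a 0 cover counting error only.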

Additional observations from a re-analysis of the deposited data

How the results depend on the processing

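The count of enzymes called lower was 1 in 12 of 17 alternatives and 0 with the replicate block and without both replicate 2 libraries; it ran from 0 to 1 when single libraries were left out. The count called higher was 0 in all 17. The log2 fold change of Aldoc stayed between −4.88 and −4.55, with edgeR, DESeq2 or limma adjusted p from 1.59e-45 to 0.142. Aldoa, Eno1, Gapdh, Pgk1 and Pkm stayed negative and uncalled throughout.

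The value of Eno2 became negative with upper-quartile scaling (−0.28), limma-voom (−0.43), limma on log2(TPM + 1) (−0.44), the replicate block (−0.38), the depth term (−0.35), without both replicate 2 libraries (−0.77) and, leaving out single libraries, without WT replicate 1 (−0.18), WT 3 (−0.17) or cKO 2 (−1.67). Over all single libraries left out, Eno2 ran from −1.67 to 1.03, Ldha from −9.93 to 1.26 and Ldhb from −1.14 to 0.013. Over all alternatives Ldhb reached −2.84 with limma-voom and −2.93 with limma on log2(TPM + 1). Ldha was positive without WT replicate 2, and Ldhb without cKO replicate 3. The cause was not tested.

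The difference in the log2 ratio of Aldoc to Aldoa ran from −3.47 to −3.02 over 10 alternatives, that of Eno2 to Eno1 from 0.32 to 2.62, and that of the Pkm share from 22.3 to 34.7 points. For Ldhb to Ldha the 1 cKO ratio differed from the WT mean by −2.93 on the log2 scale, from −4.73 without WT replicate 2 to −0.56 without WT replicate 1, whose ratio rests on 1 count of Ldha; with 1 TPM added the difference over all 6 libraries was −0.24 (exact permutation p = 1). Same-numbered libraries deviated together with r of 0.064, 0.462 and 0.162 for replicates 1 to 3. The replicate 2 value was the highest of all pairings of a WT with a cKO library. Pairings of a replicate 2 library with another number ran from −0.309 to −0.141. For replicate numbers 1 and 3 these values cannot decide on a pairing, because deviations from a mean of 3 libraries depend on each other. WT replicate 1 had a higher r with cKO replicate 3 (0.2) than either had with its same-numbered library. With the replicate block, tested by exact sign flips, Aldoc to Aldoa kept −3.27, Eno2 to Eno1 1.70 and Pkm 28.5 points (p = 0.25 each). Outside the replicate 2 libraries, Tpi1, Ldha and Eno2 had 0 to 59 counts, which limits the precision of their values.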
